A study of Bos taurus with 43 samples.

Results

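Biceps brachii muscle of 16 slaughterhouse bulls of unknown corticosteroid status was compared between 9 animals of group 3 (29, 39, 50, 52, 60, 61, 78, 79 and 81) and 7 animals of group 4 (36, 37, 38, 49, 51, 58 and 76). Both groups were drawn by the study on a principal component plot of these same arrays, so that the animals were grouped by their measured expression. They are 16 of the 43 animals of the series and of its 21 status-unknown ones. Because that plot was drawn from the same probe signals, the expression differences given here are a description and carry no test. The animals were males from commercial herds sampled at slaughter, mostly French beef breeds and their crosses according to the methods. No treatment, breed or age of a single animal is in the labels used here. The other 27 arrays came from 4 animals suspected of corticosteroid treatment (S), 5 cross-breed negative controls (K), 13 Holstein negative controls (C) and 5 further unknown animals (263, 265, 266, 269 and 270). They are used below only for context. The paper classed the 4 S animals (P there) as positive by thymus histology and found dexamethasone in their urine. In the urine of the 16 animals compared here it reported none detected. The question was how muscle expression differs between status-unknown animals that the study placed apart on its plot.

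Skeletal muscle is a mosaic of slow fibres, which contract slowly, hold much myoglobin and burn fuel in mitochondria, and fast fibres, which contract quickly and lean on glycolysis. Each fibre type has its own myosin heavy and light chains, troponins and calcium pump. Glucocorticoids act on muscle through a nuclear receptor, induce genes such as TSC22D3 and KLF15, and promote protein breakdown. The array is an Agilent single-colour oligonucleotide array with 21475 gene probes, 1 animal per array. Levels are normalized log2 intensities, in which 1 unit is a 2-fold change of signal, and levels of different probes are not comparable with each other.

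Both groups were on separate slides and were scanned on separate days. No slide and no scan day held animals of both groups. Dates of labelling and hybridization were not available here. The group 4 animals 37, 38, 49 and 51 were scanned on day 4 and animals 36 and 58 on day 5, whereas animal 76 was scanned alone on day 7. The group 3 animals were scanned on day 6 (50, 78, 79 and 81), day 8 (52, 60 and 61) and day 9 (29 and 39). Group and scan day can therefore not be told apart. The study itself drew animal 76 with group 4 on one plot and with the group 3 animals on a second plot that left out the Holstein controls.

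A measure that the grouping did not use also differed. The local background, the median log2 signal around the spots of an array, was 5.27 at the lowest, 5.32 at the median and 5.39 at the highest in group 3. In group 4 it was 5.46, 5.61 and 5.64. The groups did not overlap, with a difference of means of -0.269 (two-sided exact permutation test over 11440 assignments, p = 0.00017, the smallest that they allow; adjusted over 2 measures, p = 0.00034). Arrays of a slide are not independent, however: over the means of the 4 slides of group 3 and the 3 of group 4 the difference was -0.245 and p = 0.057, the smallest that 35 assignments of slides allow (two-sided exact permutation test). The group 4 array nearest to group 3 was that of animal 76 (5.46), and the 5 other unknown arrays, scanned on day 5 beside animals 36 and 58, had values like those of group 4. Over all arrays of days 4 and 5 the local background ran from 5.52 to 5.67, and over days 6 to 9 from 5.27 to 5.46. With the median signal of the negative control spots in place of the local background, the difference was -0.122 (exact permutation test, p = 0.089). The share of spots with outlier flags was 0.193% ± 0.402 (SD, n = 9) in group 3 and 0.0339% ± 0.0138 (SD, n = 7) in group 4, a difference within the spread of the arrays (two-sided exact permutation test, p = 0.12). It rested on animal 79, with 1.26% flagged spots; without it the difference of means was 0.0254 percentage points.

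**Figure D1:**
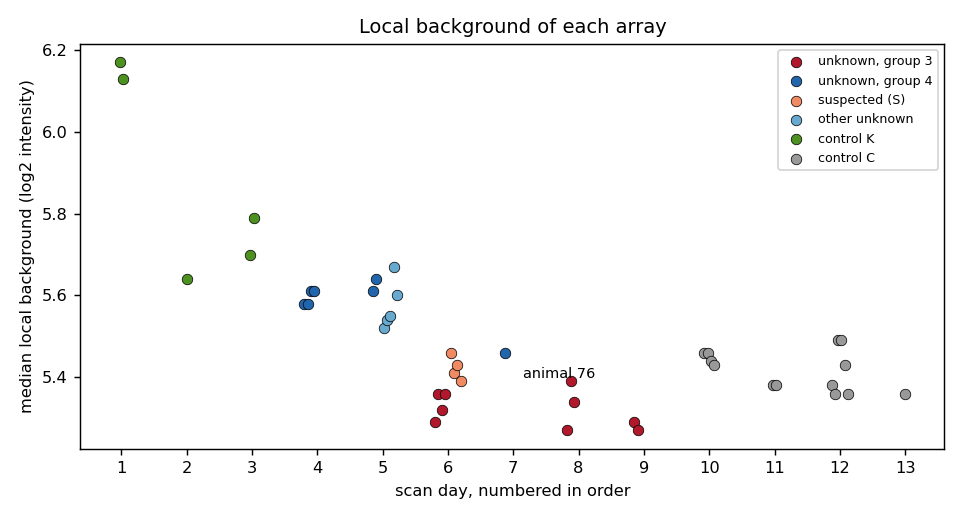
Median local background of each of the 43 arrays (log2 intensity, vertical axis) by scan day in order (horizontal axis); each point is 1 array, coloured by group. The arrays of days 4 and 5, which hold 6 of the 7 group 4 animals, lie between 5.52 and 5.67, and those of group 3 between 5.27 and 5.39.

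The arrays also differed in quality within groups. The share of spots well above background ran from 40.2% (animal 79) to 97.3% (animal 50) in group 3 and from 63.6% (animal 76) to 72.6% (animal 51) in group 4. The spike-in RNAs, added in equal amounts, gave mean normalized log2 signals of 6.12 (animal 52), 6.22 (animal 76), 6.31 (animal 39), 6.67 (animal 29) and 7.18 (animal 61), and between 8.78 and 10.7 on the other 11 arrays. In group 4 the only array with such a low signal was that of animal 76. These low arrays were scanned on days 7, 8 and 9, on which only animal 60 (day 8) was higher, at 10.0. The array of animal 76 also saturated early: it had saturated spots at 58 probes, with normalized levels between 16.79 and 17.48, against at most 3 probes on any of the other 15 arrays. At these probes its value is a lower limit.

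Of the 21475 probes, 16354 passed the filter on dim signals. A probe is called here when the means of both groups differ by at least 1 on the log2 scale and the values of both groups do not overlap. By this rule 110 probes were higher in group 3 (0.673% of those kept) and 72 were lower (0.44%). These probes were part of what placed the animals, so that nothing is read from their number. At 9 of the 110 higher probes animal 76 was saturated, so that its place below group 3 is not known there. A difference of at least 1 without regard to overlap was seen for 1862 probes in the higher and 1015 in the lower direction, and the median difference of all probes was -0.05. Probes called lower were dim: their median level was 5.33, against 7.47 for those called higher and 7.81 for all probes kept. Of the 72 lower probes 4 were well above background on all 16 arrays, and of the 110 higher probes 56 were.

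The number of calls hinged on 1 animal. Without animal 76, 974 probes were higher in group 3 (5.96%) and 576 were lower (3.52%), and all 182 probes called with it were among these 1550. At 1198 of the 1550 probes animal 76 lay inside the range of the 9 group 3 animals, and at 65 inside the range of the other 6 group 4 animals. At 134 it lay between both ranges, and at 151 beyond group 3. Leaving out any other single animal gave at most 166 higher and 128 lower probes. On a scale from 0 (mean of group 4 without animal 76) to 1 (mean of group 3), with each of the 15 other animals placed by probes called without it, animal 76 stood at 0.97. The 9 group 3 animals stood between 0.81 (animal 79) and 1.07 (animal 78), and the other 6 group 4 animals between -0.07 (animal 51) and 0.24 (animal 58). At these probes animal 76 was thus nearer to group 3 than to the other group 4 animals. The probes were picked from the values that also drew the groups, so that its label cannot be judged by them. Its array was scanned alone on day 7 and had a low spike-in signal, and the part of this in its place was not tested. Results are given with and without it.

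The 5 other unknown animals, scanned on day 5, stood between -0.13 and 0.09. The 4 suspected animals, scanned on day 6, stood between 1.03 and 1.07, and the 13 Holstein controls, scanned on days 10 to 13, between 0.82 and 0.93. The 5 cross-breed controls, scanned on days 1 to 3, lay in the middle, between 0.42 and 0.51. Thus every array of days 4 and 5 stood at 0.24 or lower, and every array from day 6 on, of untreated, suspected and unknown animals, at 0.81 or higher. The part of the scan day in these differences was not tested, since no day held both groups.

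**Figure D2:**
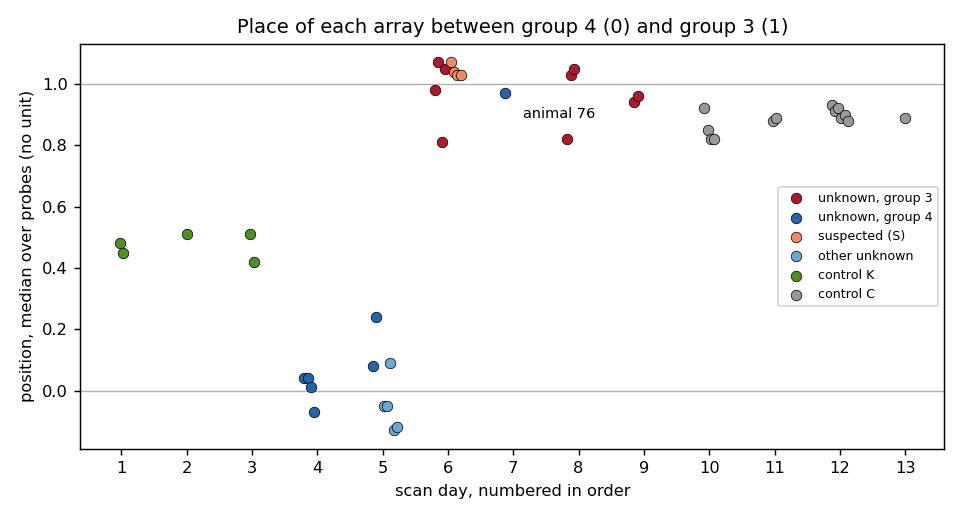
Position of each array on a scale from the mean of group 4 without animal 76 (0) to the mean of group 3 (1), as the median over called probes (vertical axis, no unit), by scan day in order (horizontal axis); each point is 1 array, coloured by group. Arrays of days 4 and 5 lie between -0.13 and 0.24 and those of days 6 to 13 between 0.81 and 1.07, with animal 76 at 0.97.

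Other probes of the same genes did not follow the called ones. Of the probes called without animal 76, 212 belong to genes with further probes that passed the filter, which gives 256 pairs. The second probe differed in the same direction in 127 of these pairs (49.6%), against 50.4% of 1227 pairs of probes of 1 gene taken over all genes regardless of calls. The median size of the called differences was 1.55 on the log2 scale, and the median difference of the second probes in the called direction was 0.00. In 32 pairs the second probe differed by 1 or more in the same direction. For ALAS1, the first enzyme of haem synthesis, 1 probe was higher by 1.17 and the other lower, at -1.13, and both were called without animal 76. For CKMT2, the mitochondrial creatine kinase of striated muscle, 1 probe had a difference of 0.81 and the other of -1.04 without that animal. Among the exceptions were both probes of ATXN1, a nuclear protein linked to spinocerebellar ataxia, at -1.99 and -1.16, and both probes of ASIP, the agouti coat colour signal, at 2.93 and 2.40. The differences below are thus differences of single probes, and for most genes 1 probe is all there is.

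**Figure D3:**
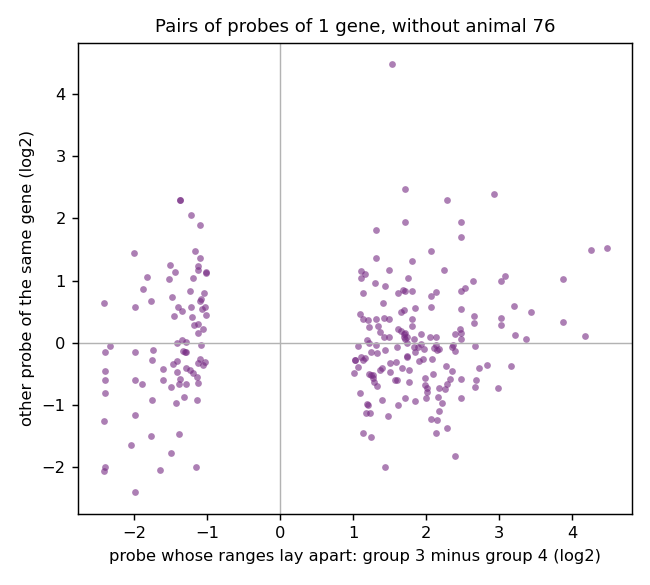
Difference between group 3 and group 4 without animal 76 (log2) of probes called there (horizontal axis) against that of another probe of the same gene (vertical axis); each point is 1 of the 256 pairs, and a pair in which both probes were called appears both ways round. The points lie on both sides of 0 in either direction, with the same sign in 127 pairs.

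Several contractile proteins of slow fibres were higher in group 3. Of the 14 slow fibre probes 4 were called higher (28.6%, beside 0.673% of all probes) and none lower. Without animal 76 the count was 8 of 14 higher (57.1%, beside 5.96% of all probes). That count became 6 after quantile normalization, and 4 higher and 1 lower after cyclic loess run pair by pair. With all 16 animals the median difference of the list was 1.18, beside -0.05 for all probes. The array of animal 76 was saturated at 7 of the 14 probes, among them all 4 that were called with it, so that these calls are uncertain and the values of those 4 are given without it. MYH7, the slow myosin heavy chain, was at 17.75, 18.03 and 18.50 in group 3 (lowest, median and highest) and between 16.53 and 17.10 in the other 6 group 4 animals. Every group 3 animal was above these 6, with a difference of 1.30. MYL2, the slow regulatory light chain, had levels of 17.85, 18.14 and 18.50 in group 3 and of 16.31 to 16.80 in the 6 animals, a difference of 1.58, again without overlap. MYL6B, an essential light chain of slow muscle, was at 17.88, 18.09 and 18.20 against 16.08 to 16.67, and differed by 1.77. For MB, myoglobin, the oxygen store of slow fibres, levels were 18.19, 18.50 and 19.03 in group 3 and 16.92 to 17.98 in the 6 animals, a difference of 1.08; 4 group 3 arrays were saturated here, so that this is a lower limit. Animal 76 was at least at 17.11, 17.19, 17.24 and 17.26 for MYH7, MYL2, MYL6B and MB, and whether it lay below group 3 is not known. With all 16 animals the differences of these 4 probes were 0.90, 1.12, 1.27 and 0.51 after quantile normalization, and 0.42, 0.68, 0.88 and 0.16 after cyclic loess run pair by pair.

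Another 4 slow fibre members separated the groups once animal 76 was left out. MYBPC1, slow myosin binding protein C, was at 14.87, 15.02 and 15.59 in group 3 and between 12.56 and 13.34 in the other 6 group 4 animals, whereas animal 76 was at 15.30. ACTN2, the Z-disc protein alpha-actinin 2, likewise had 15.02 to 15.59 in group 3, 12.94 to 13.49 in the 6 animals and 15.43 in animal 76. TNNT1, slow troponin T, ran from 17.36 to 18.06, from 15.53 to 16.32, and stood at 17.48 or more, saturated, in animal 76. MYOZ2, a calcineurin-binding Z-disc protein of slow fibres, ran from 14.26 to 15.99, from 12.29 to 13.52, and stood at 15.72. At MYBPC1, ACTN2 and MYOZ2, where no array was saturated, animal 76 was inside the range of group 3.

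The remaining 6 slow fibre probes did not share this. MYL3, the slow essential light chain that pairs with MYH7, had a median of 16.88 in group 3 and 17.38 in group 4, a difference of -0.40 (SE 0.17), with overlapping values, and of -0.44 without animal 76, whose array was saturated there. TPM3, slow tropomyosin, differed by -0.30, CASQ2, the calcium store protein of slow fibres, by -0.26, and both probes of ATP2A2, the slow calcium pump, by -0.38 and -0.51. TNNC1, slow troponin C, differed by 0.25 without animal 76; the array of that animal and 5 of the 9 group 3 arrays were saturated. The median difference of the list depended on the normalization: it was 0.71 after quantile normalization and 0.29 after cyclic loess run pair by pair, where none of its probes was called.

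**Figure D4:**
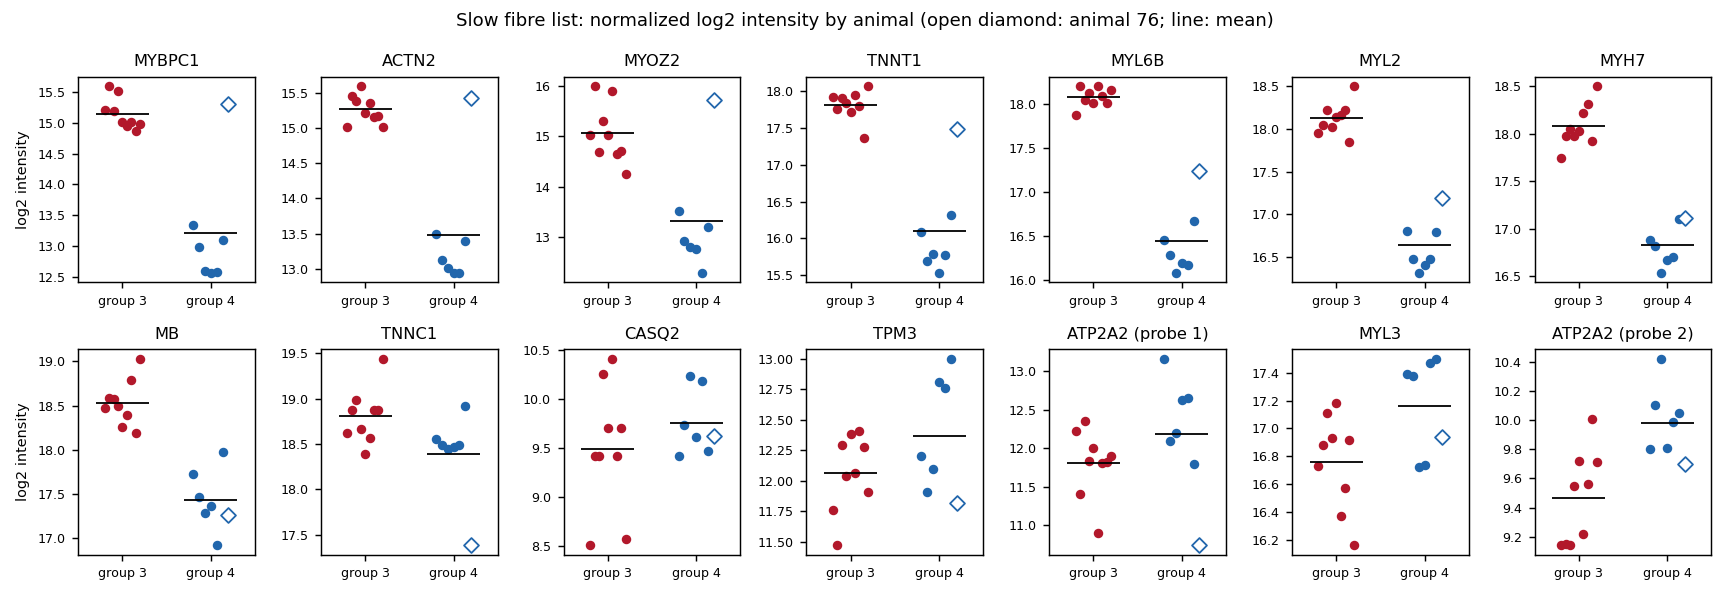
Normalized log2 intensity (vertical axes, own scale in each panel) of the 14 slow fibre probes in the 9 group 3 and 7 group 4 animals; each point is 1 animal, the open diamond is animal 76 and the line is the group mean. In MYL6B, MYL2, MYH7 and MB all group 3 animals lie above the 6 group 4 animals other than 76, whose point is a lower limit in these 4 panels and in TNNT1, TNNC1 and MYL3, and in MYBPC1, ACTN2 and MYOZ2 it lies at the level of group 3.

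In the fast fibre list 0 of 15 probes were called, 1 was higher without animal 76 (6.67%, beside 5.96% of all probes), and the median difference was 0.01, or -0.32 without that animal. The list varied widely inside group 3 instead. MYH1, the fast IIx myosin heavy chain, ran from 6.74 (animal 61) to 17.17 (animal 52) at 1 probe and from 8.30 (animal 61) to 17.42 (animal 81) at the other. At the first probe animals 61, 39, 79 and 60 had levels of 6.74, 7.57, 8.33 and 8.66, and the other 5 group 3 animals were at 13.95 or higher. In group 4 that probe ran from 8.02 (animal 76) to 15.15 (animal 49). TPM1, the fast form of tropomyosin, ran from 10.54 to 16.68 in group 3 and from 10.90 to 16.38 in group 4, MYBPC2, fast myosin binding protein C, from 8.11 to 16.17 and from 10.17 to 16.51, and ATP2A1, the fast calcium pump, from 11.63 to 15.89 and from 11.71 to 16.02. Relative to the mean of group 4 without animal 76, the median shift of the list was -2.28 in animal 61, -1.99 in animal 39, -1.71 in animal 79 and -1.06 in animal 60, and 0.39 to 1.20 in the other group 3 animals. Animal 76 had a shift of -1.02, the lowest of group 4. The animals with low fast fibre values were scanned on days 6, 7, 8 and 9, each of days 6, 8 and 9 also holding group 3 animals with high values.

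The fast fibre members with the largest differences went both ways. MYH4, described on the array as the fast IIb myosin heavy chain, was at 13.45, 14.07 and 14.42 in group 3 and at 10.66, 11.82 and 13.65 in group 4. Animal 76 had the 13.65, and without it the groups were apart, with a difference of 2.56. Myosin heavy chain genes are close copies of each other, and how far 1 probe also binds another gene's RNA was not tested. CASQ1, the calcium store protein of fast fibres, differed by -1.64 at a dim probe that was well above background on 1 of 9 and 3 of 7 arrays. ACTN3, fast alpha-actinin, and TNNT3, fast troponin T, differed by -1.07 and -1.06, with overlapping groups.

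**Figure D5:**
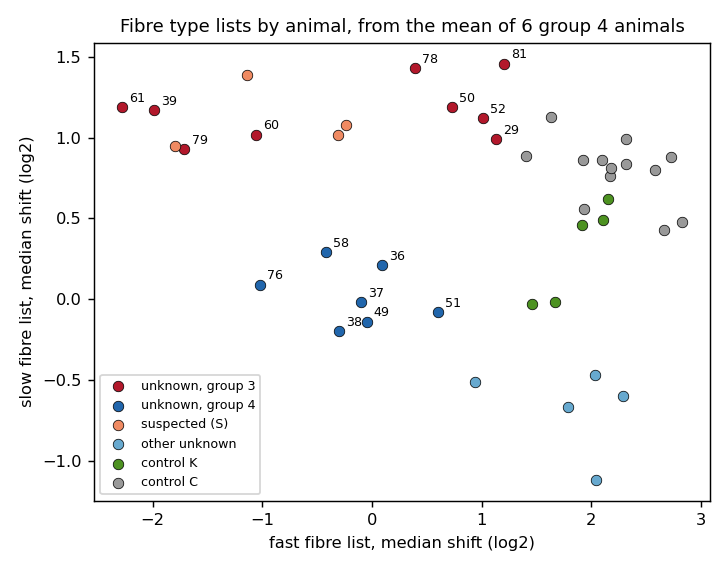
Median shift of the slow fibre list (vertical axis, log2) against that of the fast fibre list (horizontal axis, log2), each relative to the mean of the 6 group 4 animals other than 76; each point is 1 of the 43 animals, and the 16 animals of groups 3 and 4 are numbered. Group 3 lies between 0.93 and 1.46 on the slow axis and is spread from -2.28 to 1.20 on the fast axis, and group 4 lies between -0.20 and 0.29 on the slow axis, where the value of animal 76 rests in part on saturated spots.

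Of 25 glycolysis probes none was called, and the median difference was -0.22. Without animal 76, GPD1, the glycerol-3-phosphate dehydrogenase that links glycolysis to lipid synthesis, was higher (difference 1.38; 4.0% of the list, beside 5.96% of all probes) and PGK1, phosphoglycerate kinase, was lower (-1.16; 4.0%, beside 3.52% of all probes). None of the 7 phosphagen probes kept was called, and their median difference was -0.31. Without animal 76, 1 CKMT2 probe was lower (-1.04; 14.3% of the list, beside 3.52% of all probes). CKM, muscle creatine kinase, differed by -0.32, and AMPD1, the AMP deaminase of muscle, by -0.19. Of 21 fatty acid oxidation probes 1 was higher without animal 76 (4.76%, beside 5.96% of all probes). It was ACADM, the medium-chain acyl-CoA dehydrogenase, with a difference of 1.29.

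Of 89 respiratory chain probes 1 was called (1.12%, beside 0.673% of all probes), with a median difference of 0.08. Without animal 76, 8 were higher (8.99%, beside 5.96% of all probes) and 2 lower (2.25%, beside 3.52%). The called one was NDUFAF4, an assembly factor of complex I, at 7.74, 8.02 and 8.39 in group 3 and 5.20, 5.50 and 7.47 in group 4. The difference was 2.28 (SE 0.27), and the 7.47 was animal 76. Subunits of the same complex differed in size and direction: COX6C and COX5A of cytochrome oxidase were higher without animal 76 by 2.09 and 1.39, NDUFB8 of complex I by 1.54, and NDUFB3 of the same complex was lower (-1.1). ATP synthase subunits likewise included ATP5PB at 2.65, ATP5PO at 1.47 and ATP5MF at -1.02.

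None of the 86 ribosomal protein probes was called with animal 76. Without it 16 were higher (18.6%, beside 5.96% of all probes) and 2 were lower (2 of 86, beside 3.52% of all probes). Another 13 probes that the symbol prefixes of the list also took, of S6 kinases and RPS19BP1, were left out of this count after it was seen. The median difference of the 86 was 0.17. RPL34, a protein of the large subunit, was at 13.05, 13.16 and 13.56 in group 3 and at 8.34, 8.74 and 13.44 in group 4. Animal 76 had the 13.44, inside the range of group 3, and without it the difference was 4.44. RPS2 and RPS3A, of the small subunit, differed by 1.07 and 1.08 without animal 76, whose array was saturated at both, and RPL28 and RPS15A were lower, at -1.17 and -1.03. The other RPS15A probe kept differed by 0.58 without that animal. At the 16 higher probes animal 76 lay inside the range of group 3 in 9 and above it in 7, RPS2, RPS3A and RPL27A with saturated spots included.

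Glucocorticoid targets were not called in either direction (0 of 26), with a median difference of 0.10. Without animal 76, KLF15 and TSC22D3 were higher (7.69%, beside 5.96% of all probes) and none was lower. KLF15, a transcription factor that drives amino acid breakdown in muscle, was at 4.10, 6.55 and 8.38 in group 3 and at 1.97, 3.38 and 7.41 in group 4. Animal 76 had the 7.41, the other 6 animals were below all of group 3, and the probe was well above background on 8 of 9 and 1 of 7 arrays. The 1 was animal 76. Without it KLF15 was 4.96-fold higher in group 3, with group 4 set per array to the lowest signal well above background or, if higher, the probe's own. The group 3 array that was not well above background kept its own value, so that this is an approximate bound. TSC22D3, the leucine zipper protein induced by glucocorticoids, was at 5.04, 5.26 and 6.44 against 2.65, 3.63 and 5.33. Animal 76 was again at the top of group 4 (5.33), and the probe was well above background on 8 of 9 and 1 of 7 arrays. Without that animal the same approximate bound was 2.8-fold. MT1A, a metal-binding metallothionein, was at 4.84, 7.25 and 8.29 against 3.62, 5.47 and 6.20, with overlap.

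Growth and atrophy genes were not called either (0 of 20, median difference 0.05). DLK1, a Notch-related protein of growing muscle, and INHBA, the activin A subunit, were higher without animal 76 by 1.54 and 1.58 (2 of 20, 10.0%, beside 5.96% of all probes), and the second INHBA probe differed by -0.31. MSTN, myostatin, the brake on muscle growth, was at 2.24, 4.90 and 6.35 in group 3 and at 2.29, 2.58 and 3.34 in group 4. It was well above background on 5 group 3 arrays and on none of group 4. With group 4 set as for KLF15, its mean was 1.37-fold higher in group 3. That is no firm lower limit, since the dim group 3 arrays kept their own values, with animals 29, 39 and 52 at 2.79, 2.57 and 2.24. None of 14 myogenic probes was called. Of 17 immediate early probes none was called. Without animal 76 FOSB was higher by 1.80 (5.88%, beside 5.96% of all probes) and ZFP36 lower, at -1.11 (5.88%, beside 3.52%). The second FOSB probe differed by 0.27 without that animal. EGR1, a growth-responsive transcription factor, differed by -1.55 with all 16 animals and by -1.70 without animal 76, with overlapping groups. Of 24 heat shock probes none was called, and CRYAB and HSPD1 were higher without animal 76 (8.33%, beside 5.96%). CRYAB, a small heat shock protein of muscle, was at 16.69 to 17.39 in group 3, at 17.16 or more, saturated, in animal 76 and at 14.83 to 15.50 in the other 6 group 4 animals, with a difference of 1.82 without that animal. HSPD1, the mitochondrial chaperonin, differed by 1.0 without it, over 5 group 4 animals, because animal 36 had no value at this probe.

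Among called probes with a symbol and a signal well above background throughout the brighter group, the largest differences in the higher direction were at NR4A3, ROMO1, SLC25A4 and RXRA. NR4A3, an orphan nuclear receptor induced by exercise, was at 7.26, 8.49 and 9.95 in group 3 and at 2.97, 5.42 and 6.99 in group 4, with a difference of 3.38 (SE 0.61). Here animal 76, at 5.97, was among the other group 4 animals. ROMO1, a small protein of the mitochondrial inner membrane, was at 9.12, 9.40 and 9.98 against 4.79, 5.65 and 9.07, and SLC25A4, the ADP/ATP carrier of heart and muscle mitochondria, at 14.48, 14.64 and 14.87 against 10.37, 11.06 and 14.47. In both, animal 76 supplied the highest group 4 value, just under the lowest of group 3. RXRA, the retinoid X receptor, was at 9.42, 9.84 and 10.53 against 5.86, 6.53 and 9.25, a difference of 3.03 (SE 0.40), and its second probe differed by 0.28. IP6K3, a muscle inositol hexakisphosphate kinase, differed by 2.55 (SE 0.46) and its second probe by -0.30. The list went on with ARIH2 (2.40), PEBP1 (2.37), DTNBP1 (2.25), OPN1LW (2.20), FAM166B (2.19) and RIMKLA (2.13).

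By the same rule the largest difference in the lower direction was at GPR39, a zinc-sensing receptor, at 1.20, 3.29 and 4.66 in group 3 and 5.19, 5.27 and 6.45 in group 4. It differed by -2.18 (SE 0.47) and was well above background on 1 of 9 and 7 of 7 arrays, so that its size in group 3 is uncertain. NRGN, a calmodulin-binding protein, was at 4.39, 5.10 and 5.49 against 5.75, 7.23 and 7.77, a difference of -2.0 (SE 0.26), and the lowest group 4 value was that of animal 76. DNAJC7, a co-chaperone of HSP70 and HSP90, was at 10.25, 10.48 and 10.84 in group 3 and at 10.87, 12.45 and 12.79 in group 4, and differed by -1.62 (SE 0.23). Its lowest group 4 value, 10.87, was again animal 76, and the other 6 animals were at 11.94 or above. The rest of these were ATXN1 (-1.98), FAM89B (-1.75), SDSL (-1.74), TIGD6 (-1.71), AGK (-1.61), OR2AG2 (-1.58), DLL1 (-1.46), TMEM40 (-1.46) and PPP1R12A (-1.37), of which FAM89B, AGK, DLL1 and PPP1R12A also had animal 76 as their lowest group 4 animal. ATXN1 and AGK were well above background on 3 of 9 group 3 arrays, SDSL on 4 and TIGD6 on 5, so that these sizes are uncertain too.

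The 8 probes named next were selected as those with the largest differences without animal 76 at which that animal lay inside the range of group 3. The differences were 5.62 for BAIAP2L2 and METTL2A, 5.42 for TMEM218 and MOCS3, 5.10 for KLK15 and 4.78 for C14H8orf34. The C14H8orf34 probe was well above background on 2 of 7 group 4 arrays, so that the size of its difference is uncertain. FKBP11 and LRP5 were well above background on 8 of 9 group 3 arrays and on none of the 6 other group 4 arrays. By the approximate bound used for KLF15 they were 20.1-fold and 15.8-fold higher in group 3. METTL2A, a methyltransferase of transfer RNA, was at 15.51 to 16.32 in group 3, at 16.06 in animal 76 and at 9.66 to 11.02 in the other 6 group 4 animals. MOCS3, an enzyme of molybdenum cofactor synthesis, was at 14.01 to 15.07, at 14.69 and at 8.49 to 10.24. The means of METTL2A were 16.08 in the suspected animals, 16.04 in the Holstein controls, 13.05 in the cross-breed controls and 11.29 in the 5 other unknown animals. Over all probes kept, animal 76 had correlations of 0.941 to 0.974 with the 9 group 3 arrays and of 0.919 to 0.939 with the other 6 group 4 arrays, as a description of arrays that share probes and normalization.

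HOXA9, which encodes a homeobox factor of limb and axial position, is measured by 4 probes. At 3 of them both groups were dim: medians were 3.53, 1.87 and 3.03 in group 3 and 3.27, 2.39 and 4.01 in group 4, and the mean levels of the 5 other unknown animals were 11.21, 10.52 and 6.39. The fourth probe did not share the low level in group 3. It was at 6.19, 6.56, 6.79, 7.21, 7.59 and 7.87 in animals 61, 60, 79, 81, 78 and 50, and at 1.39, 1.85 and 2.18 in animals 52, 39 and 29. In group 4 it ran from 0.96 to 4.17 and was well above background on no array, against 5 of 9 arrays in group 3. With group 4 set as for KLF15, its mean was 2.46-fold higher in group 3, which is no firm lower limit, since group 3 had dim arrays too. Animals 52, 39 and 29 also had low spike-in signals, as did animal 61; the part of array quality in this was not tested. None of the 19 probes of the position list and of the 15 probes of the genes that the study used as classifiers or measured by qRT-PCR was called. Without animal 76, 2 of these 15 probes, of IPO9 and BLVRB, were higher (13.3%, beside 5.96% of all probes). IPO9, a nuclear import receptor, was at 14.68, 15.62 and 16.06 in group 3 and at 12.58, 12.75 and 15.97 in group 4. Animal 76 had the 15.97, and without it the difference was 2.62. BLVRB, biliverdin reductase B, differed by 1.1 without animal 76, and DDIT4L, a stress-induced inhibitor of mTOR signalling, by -1.18 with all 16 animals and overlapping groups.

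All animals were male according to the study's methods, and probes of Y-linked genes were set against this. ZFY, a zinc finger gene of the Y chromosome, was at 5.52, 6.27 and 6.98 in group 3 and at 2.84, 3.85 and 5.58 in group 4. Animal 76 had the 5.58 and was inside the range of group 3; the probe was well above background on 8 of 9 and 2 of 7 arrays. Its mean was 3.86 in the 5 other unknown animals, which were scanned on day 5 with animals 36 and 58, and 6.14, 6.47 and 6.92 in the K, C and S animals. TSPY, a testis-specific Y gene, was well above background on 5 of 9 and 0 of 7 arrays. With group 4 set as for KLF15, its mean was 1.55-fold higher in group 3, which is no firm lower limit, since group 3 had dim arrays too. The UTY probe went the other way, at 4.74, 6.09 and 6.30 against 6.10, 6.58 and 7.19, and SRY was too dim in both groups. Of 17 probes of X-linked partner genes none was called and the median difference was -0.17. OFD1, a centriole protein, was the 1 probe lower without animal 76, at -1.42 (5.88% of the list, beside 3.52% of all probes), and none was higher. Signals of OFD1 were well above background on 6 of 9 and 6 of 7 arrays. Probes of 1 gene disagreed here too, with UBA1 at 1.48 and -0.46 and DDX3X at 0.78, 0.34 and -0.06.

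Marker lists of other cell types had median differences between -0.28 and 0.39, beside -0.05 for all probes, and between 0.00 and 0.48 without animal 76, beside -0.06. The adipocyte list had 0 of 24 probes called and a median difference of -0.28, which was 0.00 without animal 76; FASN, fatty acid synthase, and CEBPA, a fat cell transcription factor, were lower without animal 76 at 1 probe each (-1.29 and -1.21; the FASN probe was well above background on 1 of 9 group 3 arrays), and their other probes differed by -0.66 to 0.41. PNPLA2, the triglyceride lipase of fat cells, was higher by 1.03 without that animal, so that 8.33% of the list were lower and 4.17% higher, beside 3.52% and 5.96% of all probes. Of 16 leukocyte probes CD79A, a B cell receptor chain, was called (6.25%, beside 0.673% of all probes), at 7.90, 8.40 and 8.59 against 6.43, 6.88 and 7.87. The other B cell probes went the other way, CD79B at -0.47 and MS4A1 at -1.79 and -0.65, but were too dim to pass the filter. T cell probes went both ways, with CD3D at 1.73, CD3E at 1.24, CD3G at 0.29, CD2 at -0.33 and CD8A at -0.64. The median of the leukocyte list was 0.26. The red cell list had a median of 0.39, with HBA, alpha globin, at 6.79, 8.46 and 9.78 against 5.50, 7.55 and 9.21. Endothelium and nerve lists had medians of 0.06 and 0.29 with 0 calls of 15 and 8; without animal 76, PECAM1, an adhesion protein of endothelium, was lower (-1.31; 6.67% of its list, beside 3.52%), and no nerve probe separated the groups. Collagen and matrix probes had 0 calls of 32; without animal 76, COL6A3, a microfibrillar collagen, and DCN, decorin, were higher by 2.35 and 1.21 (6.25%, beside 5.96%), and the other DCN probe differed by 0.26. Proteasome probes had 1 call of 48 (2.08%, beside 0.673%), PSMC3, an ATPase of the regulatory cap, with a difference of 1.1 (SE 0.17); without animal 76, PSMB10 (1.98) and PSMA3 (1.11) were higher too (3 of 48, 6.25%, beside 5.96%) and PSMD14 lower (-1.16; 2.08%, beside 3.52%). Antigen presentation probes had 0 calls of 18. Without that animal B2M, the light chain of class I molecules, was higher by 1.07 (5.56%, beside 5.96%), and TAPBP, tapasin, and MX2, an interferon-induced GTPase, were lower (-1.06 and -2.19; 11.1%, beside 3.52%), MX2 at a probe well above background on 1 of 9 group 3 arrays. A change in the share of a cell type and a change in RNA per cell cannot be told apart in these tissue samples.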

How the data were processed

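Arrays of 43 bovine biceps brachii samples were analysed, of which 16 were compared. Per spot, a processed intensity was deposited by the authors (gProcessedSignal of Agilent Feature Extraction 9.1.3.1, 9.5.1.1 or 9.5.3.1, per the file headers), already corrected for background, together with the mean intensity, the local background intensity and quality flags; the deposited series table holds normalized intensities. Here processed intensities were log2-transformed and normalized over the 43 arrays by cyclic loess (limma 3.58.1, R 4.3.3; fast method, 3 iterations), outlier-flagged spots were left out and the spots of a probe averaged. Probes under 4 on at least 30 arrays were removed (5121 of 21475). The study's methods name cyclic loess, too. Of the probes, 13906 were named through RefSeq gene IDs, symbols or accessions (ARS-UCD2.0), 3736 from the array's descriptions, and 3833 had no symbol. Differences of means and their SE came from limma's lmFit without a test, because the groups were drawn on the same values; calls needed a difference of 1 and non-overlapping ranges. Array measures were compared by exact permutation tests (scipy), over single arrays and, as arrays of a slide are not independent, over slide means; group 3 and group 4 share no slide. Named were the 12 largest differences in each direction among called probes with a symbol and a signal well above background throughout the brighter group, the called members of 24 lists or else their largest, all sex-linked, phosphagen and classifier probes, and 8 probes for animal 76; ALAS1 and ASIP were added after their values were seen, as examples of probe pairs. The members of both groups and all lists were chosen with earlier results of these data known. No array pair was a duplicate (lowest SD of the difference between 2 of the 16 arrays 0.5). The number of arrays limits the precision. Saturated spots were kept and are lower limits. Normalization, background, filter, sample and slide alternatives were computed. One result of the rule for named genes is not reported here.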

Additional observations from a re-analysis of the deposited data

Results flagged for a closer look

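Within group 4, animal 76 was far from the other 6 animals in 4 of the named probes and in 3 array measures, by the gap to the nearest animal relative to the range of the group. It was at 14.47 for SLC25A4 (next 11.48), at 9.25 for RXRA (next 7.15), at 10.87 for PEBP1 (next 8.90) and at 7.47 for NDUFAF4 (next 5.87). Its local background was 5.46 (next 5.58), its share of saturated spots 0.254% (next 0%) and its position between the groups 0.97 (next 0.24). Animal 36 was far above the rest of group 4 for GPR39 (6.45) and AGK (6.75). Within group 3, animal 78 was far below the others for ATXN1 (1.99), animal 60 for OR2AG2 (3.57), and animal 79 had 1.26% of outlier-flagged spots (next 0.161%). In all 80 sets of values were checked and 12 values stood out. The rule flags about 1 in 20 sets of independent, normally distributed values. The sets here share the same animals, and most are probes called for their ranges, so that the 12 cannot be compared with that rate.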

How the results depend on the processing

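The counts of called probes depended on the processing. The 110 higher and 72 lower probes became 59 and 205 with quantile normalization, 111 and 12 with 75th percentile scaling, 103 and 155 with cyclic loess run pair by pair, 192 and 0 without normalization, and 33 and 1 with normexp background. The share of higher among all calls thus moved from 60.4% to between 22.3% and 100.0%. Without animal 76 the counts were 974 and 576, without animals 29, 39, 52, 61 and 76 they were 1554 and 928, and without animals 50, 78, 79 and 81 they were 202 and 167. A 1.5-fold limit gave 156 and 140. Leaving out single animals gave 111 to 974 higher and 71 to 576 lower probes, the highest being those without animal 76; without animal 52 the higher probes numbered 166, and without animal 79 the lower ones 128. With the series table, cyclic loess over the 16 arrays, outlier spots kept, either filter or the slide as a random block (consensus correlation 0.392), both counts stayed within 1.5 times. The median difference of all probes moved from -0.05 to -0.20 with quantile normalization and to 0.08 without normalization, and by under 0.1 under the other alternatives with all 16 animals.

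Settings combined with leaving out animal 76 were added after seeing the data. The counts were then 770 and 832 with quantile normalization, 819 and 306 with 75th percentile scaling, 856 and 565 with pairwise cyclic loess, 733 and 94 without normalization, 950 and 621 over the 16 arrays, 809 and 489 with the series table, 456 and 55 with normexp background, and 968 and 562 with outlier spots kept. Of the 182 probes called with all 16 animals, 63 stayed called with 75th percentile scaling, 70 with pairwise cyclic loess, 52 without normalization and 25 with normexp background; the cause was not tested.

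None of the 30 named called probes changed direction under any alternative, but 17 of them differed by less than 1 under at least 1 alternative, 13 with normexp background, 5 with pairwise cyclic loess, 2 with quantile normalization and 1 each with 75th percentile scaling and without normalization. The slow fibre count of 4 of 14 became 2 with quantile normalization, 0 with pairwise cyclic loess, 3 with outlier spots kept, 5 without normalization, without animal 79 and without animals 50, 78, 79 and 81, and 8 without animal 76 and without animals 29, 39, 52, 61 and 76; it was 4 under the other alternatives with one choice changed. Over slide means, added after seeing the data, the local background difference was -0.245 (exact permutation test, p = 0.057). With negative control spots the background difference was -0.122 (exact permutation test, p = 0.089). Without single animals the local background difference ran from -0.29 to -0.26 and the difference in flagged spots from 0.0254 to 0.182 percentage points, with p = 0.034 without animal 50 (exact permutation test). Of the probes called lower 3 were well above background on no group 3 array, and of those called higher 18 on no group 4 array, so that the size of these differences is uncertain. No paired analysis was possible because the replicate numbers only follow the order of the samples, and no animal, slide or scan day belongs to both groups.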
